A study of Mus musculus with 287 samples.

Results

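The transcripts of the mouse mitochondrial genome are described here. Members are all 37 genes whose symbol starts with mt-: 2 rRNA genes, 13 protein-coding genes and 22 tRNA genes, out of 55359 gene IDs in the exon count table. Their counts were read in the labelled cells with a count in at least 1000 genes, 86.97% of the labelled cells.

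The libraries are single cells of mouse cerebral organoids, made by Smart-seq3, a full-length method for RNA of single cells. All organoids came from embryonic stem cells of genotype MADM-11GT/TG;Emx1-CreER+/-, in which a Cre activated by 4-hydroxytamoxifen (60 nM on day 13) and driven from the Emx1 locus of cortical progenitors lets a dividing cell leave green and red daughters. Fluorescent cells, which the protocol calls neurons, were drawn singly by glass pipette on day 20, and the labels give each a plate, a clone, a colour and a clone type, SN or N, which they do not spell out. Of the cells read 53.0% were of SN clones and the rest of N clones, 61.9% were green and the rest red, with 90 on plate 1, 80 on plate 2 and 77 on plate 3. No organoid, culture or stem cell clone is named, so clones of 1 organoid cannot be told apart from clones of several.

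Mitochondrial DNA is a small circle transcribed from both strands into long precursors. These are processed at the tRNA genes that lie between most other genes, which frees the rRNAs and mRNAs. The mRNAs encode core subunits of complexes I, III, IV and V of oxidative phosphorylation, whose other subunits come from nuclear genes, and the rRNAs build the mitochondrial ribosome. Nuclear chromosomes carry inserted copies of mitochondrial DNA, so a read from such a stretch can match 2 places in the genome.

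Counts of the exon table covered the mitochondrial genome unevenly, with a gap in the middle. Of the 13 protein-coding genes, 7 were counted in most cells, 3 held 9 to 35 counts in all and 3 were listed at 0. The 11 neighbouring genes from mt-Ts1 to mt-Nd4l held 79 counts together, whereas mt-Co1, which lies before them, held 1644202 and mt-Nd4, which lies after them, held 322449. In that stretch mt-Co2 and mt-Co3, subunits of complex IV, had 9 and 35 counts. Both complex V genes were in it, mt-Atp6 with 35 counts and mt-Atp8 with 0. So were the complex I genes mt-Nd3 and mt-Nd4l, both at 0. A count of 0 in these cells allows a share of cells with a count of up to 1.21%, and 3 counts over the 665488698 exon counts of these cells are 0.00451 counts per 1000000 exon counts (CPM); this covers counting error only. The few counts of mt-Co2, mt-Atp6 and mt-Co3 came from 11 cells. In the intron table all 37 genes were at 0. Complex V was therefore not measured, complex IV was read from mt-Co1 and complex I from 5 of its 7 genes.

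**Figure D1:**
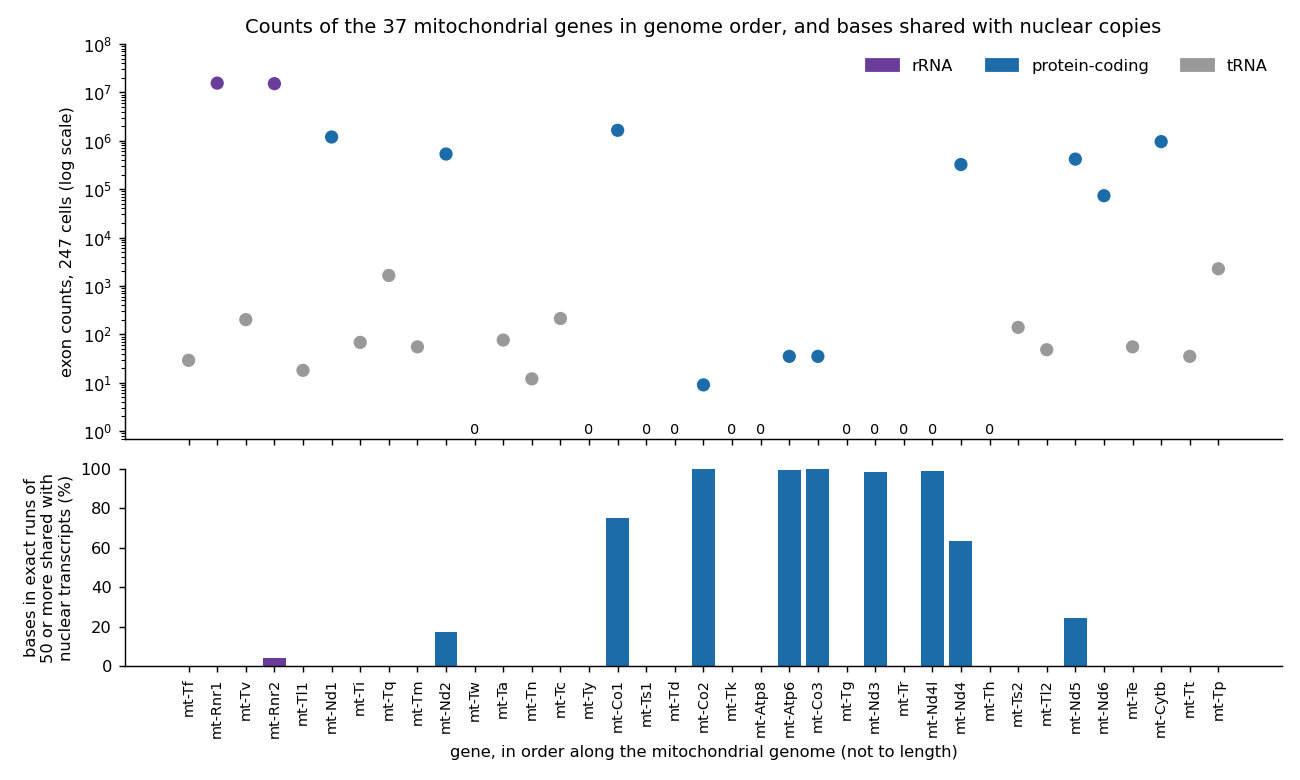
Exon counts of each mitochondrial gene summed over the cells read (upper panel, log scale, 0 written as such), with genes in their order along the genome, and the percent of each transcript's bases that lie in exact runs of at least 50 bases shared with a nuclear transcript (lower panel). The genes from mt-Ts1 to mt-Nd4l sum to 79 counts, and the coding genes among them other than mt-Atp8 share 98.3% or more of their bases.

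The coding transcripts of the gap other than mt-Atp8 have near-exact nuclear twins. Each mitochondrial transcript of the GENCODE M21 annotation was compared with the 141730 nuclear transcripts of that release. All 684 bases of mt-Co2 lay in exact runs of at least 50 bases that nuclear transcripts share. So did 678 of 681 bases of mt-Atp6, 783 of 784 of mt-Co3, 342 of 348 of mt-Nd3, and 294 of 297 of mt-Nd4l. The nuclear pseudogenes that hold them, Gm28661, Gm10925, Gm28437, Gm28438 and Gm10222, are neighbours of each other. With Gm29216 and Gm28439 they form 7 consecutive genes on chromosome 1, all on the minus strand. No shared run was found for mt-Atp8, whose end overlaps mt-Atp6 by 43 bases, and the tRNA genes of the gap showed none either; stretches between the annotated pseudogenes were not compared.

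The next lines show the start of mt-Co2, which is identical in its nuclear copy, the start of mt-Nd3, where 1 base differs, and, for contrast, a stretch near the start of mt-Cytb, which is counted in nearly every cell. The first 4 lines hold bases 1 to 60, and those of mt-Cytb and Gm11410 hold bases 2 to 61 of mt-Cytb. All are written 5′ to 3′ from GENCODE M21 (GRCm38), with capitals at the bases that differ.
mt-Co2: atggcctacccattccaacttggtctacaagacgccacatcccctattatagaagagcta
Gm28661: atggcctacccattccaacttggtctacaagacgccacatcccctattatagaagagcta
mt-Nd3: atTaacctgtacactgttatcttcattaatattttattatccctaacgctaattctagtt
Gm28438: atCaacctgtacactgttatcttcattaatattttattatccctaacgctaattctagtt
mt-Cytb: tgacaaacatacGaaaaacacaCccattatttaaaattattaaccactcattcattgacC
Gm11410: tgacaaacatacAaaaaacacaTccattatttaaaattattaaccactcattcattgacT
Over the 345 aligned bases of mt-Nd3 and Gm28438 the one difference was T3C, counted from the first base of the gene. Over 1142 aligned bases mt-Cytb and its closest nuclear transcript, Gm11410, differed at 81, and mt-Cytb shared no exact run of 50 bases with any nuclear transcript.

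Among annotated transcripts, shared runs and low counts did not coincide at every gene. mt-Atp8 and the tRNA genes mt-Ts1, mt-Td, mt-Tk, mt-Tg and mt-Tr of the gap shared no run with an annotated nuclear transcript. They were at 0, as were mt-Tw, mt-Ty and mt-Th outside the gap. The search could not find copies between the annotated pseudogenes, so whether these genes of the gap have a nuclear copy there is not known. mt-Rnr1, mt-Nd1, mt-Cytb and mt-Nd6 had no shared run of 50 bases, and mt-Rnr2 had 65 of its 1582 bases in one. mt-Nd4 shared its first 876 of 1378 bases with Gm28439 and kept 502 unshared. mt-Co1 shared 1157 of 1545 bases, mt-Nd5 443 of 1824 and mt-Nd2 17.2% of its bases, and all 3 were counted in 95.1% to 97.2% of cells. The nuclear copies were not silent in the table. Gm28438, the twin of mt-Nd3, had 9177 counts in 81.8% of cells, 13.8 CPM over all cells together, while the 6 other copies of its row were at 0.0195 to 0.317 CPM. The CPM of Gm28438 ran with the mitochondrial mRNA share of a cell (Spearman's rho 0.56) and with its rRNA share (0.53). These are descriptions over all cells read, which share libraries and totals. How reads with 2 matches were counted is not stated in the sources used here, and its part in the gap was not tested. Counts of Gm28438 and mt-Nd3 are uncertain for the same reason.

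The 2 rRNAs dominated. mt-Rnr1, the RNA of the small ribosomal subunit, and mt-Rnr2, that of the large one, took 43.4% and 42.3% of mitochondrial counts, and both were counted in every cell. Across cells mt-Rnr1 had a median of 19154 CPM, with quartiles of 10871 and 34374 and a highest value of 199243. mt-Rnr2 had a median of 22741 CPM, with quartiles of 12858 and 34911 and a highest value of 135925. Neither was always ahead, since mt-Rnr2 exceeded mt-Rnr1 in 64.0% of cells. The 13 coding genes together took 0.623% of exon counts in the median cell (range 0.000499% to 6.09%), and the rRNAs 4.37% (range 0.0972% to 26.1%). The rRNA count exceeded the mRNA count in every cell, 7.08 times in the median cell, with quartiles of 4.86 and 10.7.

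Among the 7 coding genes counted, mt-Co1, the catalytic core of complex IV, was at a median of 1825 CPM per cell. It was followed by mt-Nd1, a complex I subunit at 1383 CPM, and by mt-Cytb, the core of complex III, at 953 CPM. The other complex I genes were lower: mt-Nd2 was at 691, mt-Nd5 at 523 and mt-Nd4 at 439 CPM, and the quartiles of mt-Nd6 were 16.2 and 157.4 CPM. All 7 overlapped widely between cells, and 210 cells had counts of all 7. mt-Nd6, the one coding gene on the minus strand, was counted in 87.9% of cells and the others in 95.1% to 99.6%.

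Per kilobase of the whole transcript the order of the medians was mt-Nd1 (1445 CPM per kb), mt-Co1 (1181), mt-Cytb (833), mt-Nd2 (666), mt-Nd4 (318), mt-Nd5 (286.5) and mt-Nd6 (132.9). Both rRNAs stood above it, mt-Rnr1 at 20057 and mt-Rnr2 at 14375 CPM per kb. With the same counts divided by the unshared bases alone, the median of mt-Co1 became 4704 and that of mt-Nd4 874 CPM per kb. That placed mt-Co1 first among the coding genes and mt-Nd4 ahead of mt-Cytb and mt-Nd2. Counts from shared bases, if any, were not taken out, so this rise comes from the divisor. mt-Nd6 stayed last on both scales. Reads that lie partly in a shared stretch make neither scale exact.

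By complex, the 5 counted complex I genes held 49.4% of all mitochondrial mRNA counts, complex IV 32.0%, complex III 18.7% and complex V 0.000681%. Per clone, complex I averaged 51.8% (SD 6.85, n = 62 clones) and complex IV 30.8% (SD 6.22). Complex IV exceeded complex I in 34 cells. Division of each gene by its length moved complex IV to 24.2% (SD 5.48), whereas division by its unshared bases moved it to 50.9% (SD 8.30) and complex I to 39.3% (SD 7.99). Which complex comes first thus depends on the scale.

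tRNA genes gave few counts, and 2 of them gave most. The 22 tRNA genes held 4852 counts, 0.0135% of all mitochondrial counts, and 8 of them were at 0. mt-Tp, the proline tRNA, had 2259 counts in 130 cells, and mt-Tq, the glutamine tRNA, had 1645 in 71.7% of cells. mt-Tc followed, counted in 29.6% of cells, while mt-Tn, the lowest of those counted, had 12 counts in 4.05% of cells. The other 10 counted tRNA genes lay between them in counts. mt-Tp and mt-Tq together made up 80.5% of tRNA counts. They are shown whole, since the tRNA results turn on them, and both are encoded on the minus strand.
mt-Tq: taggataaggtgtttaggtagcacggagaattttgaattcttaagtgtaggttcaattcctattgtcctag
mt-Tp: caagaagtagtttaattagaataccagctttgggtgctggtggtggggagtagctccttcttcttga
The 8 tRNA genes on the minus strand held 87.8% of tRNA counts and the 14 on the plus strand 12.2%. On the minus strand a tRNA gene often lies opposite a long plus-strand transcript, and whether the counting used strand is not stated in the sources used here. A tRNA count and a count of a read across its precursor therefore cannot be told apart.

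Members varied together across cells. Over all cells read the Spearman correlations of log2(CPM + 1) among the 2 rRNAs and 7 coding genes ranged from 0.46 to 0.80. The highest were those of mt-Co1 with mt-Cytb (0.80), of mt-Rnr1 with mt-Rnr2 (0.80) and of mt-Nd1 with mt-Co1 (0.80). The lowest was that of mt-Nd5 with mt-Nd6 (0.46), which overlap by 14 bases on opposite strands. All points share the library totals, so part of each value is common by construction.

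Most of the sum of squares lay between cells of the same clone, which also hold most of the degrees of freedom. Of the sum of squares of the log2 mitochondrial share, 55.3% lay between cells within clones, 41.6% between clones of a plate and 3.17% between plates. The degrees of freedom alone would give 74.6%, 24.6% and 0.833%, so cells within clones held less than that part, and clones and plates more. For the log2 rRNA to mRNA ratio the same parts were 67.8%, 27.7% and 4.43%. For the share of mt-Nd5 in mitochondrial mRNA they were 58.0%, 30.4% and 11.7%, so plate took its largest part there among the 5 measures split. Within a clone the log2 mitochondrial share had an SD of 1.10.

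Whole-series facts that bear on these values are few. Exon counts per cell ran from 6171 to 13040432 with a median of 1517431. A single gene ID without a symbol held 16.6% of exon counts, with a mean over clones of 12.1% on plate 1, 15.0% on plate 2 and 32.0% on plate 3. Neuron markers Stmn2 and Tubb3 were counted in 96.8% and 96.4% of cells, and Emx1 in 34.0%. The 8 radial glia markers were counted in 45.3% (Hes5) to 95.5% (Fabp7) of cells, with Sox2 in 66.4% and Pax6 in 55.9%. The mesenchymal markers Col1a2, Col1a1 and Col3a1 were counted in 22.7%, 30.0% and 36.8%, and the choroid plexus markers Ttr and Folr1 in 27.5% and 3.64%. The microglial markers C1qa, Cx3cr1 and Csf1r were counted in 3.24%, 8.10% and 9.72% of cells. Of the endothelial markers Cldn5 was counted in 2.43%, Kdr in 10.1% and Pecam1 in 42.9%, and of the red cell markers Hbb-bt in 0.405%, Alas2 in 8.91% and Hba-a1 in 17.8%. Over all cells read the mitochondrial share had a Spearman's rho of −0.18 with total exon counts, −0.07 with detected genes, 0.01 with intron share and −0.21 with the share of the unnamed ID. On plate 3 it was −0.30 with total exon counts and −0.44 with the share of the unnamed ID.

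SN and N clones were compared to ask whether clone type went with mitochondrial RNA. The unit was the clone with at least 2 kept cells, 42 SN and 20 N clones. The p-values measure only the spread between clones, which may share an organoid. By label these SN clones had 2 to 6 cells and the N clones 4 to 19. Clone size thus went with clone type, and the fit has no term for size. The median of mt-Rnr2 was 25210 CPM over SN clones (7366 to 65811) against 15571 CPM over N clones (2836 to 44891). For mt-Rnr1 the medians were 24572 CPM (SN, 3196 to 77871) and 16091 CPM (N, 1539 to 37257). Most clones of both types lay in a common range for both rRNAs, and while the highest clone was of SN type and the lowest of N type, the other low clones were of both types. The log2 difference was 0.54 ± 0.20 (SE) for mt-Rnr2 and 0.62 ± 0.23 for mt-Rnr1. Neither passed in the edgeR quasi-likelihood test over all genes, with an adjusted p of 1 for both and unadjusted p of 0.00835 and 0.00928.

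The coding genes pointed the same way with smaller or less certain differences. The complex I genes mt-Nd4, mt-Nd2 and mt-Nd1 had log2 differences of 0.50 ± 0.26, 0.48 ± 0.24 and 0.47 ± 0.25. mt-Co1 was at 0.29 ± 0.25, mt-Cytb at 0.28 ± 0.25, mt-Nd5 at 0.24 ± 0.24 and mt-Nd6 at 0.22 ± 0.33. Of the tRNAs, mt-Tq was at 0.47 ± 0.45 and mt-Tp at 0.13 ± 0.64. Only 11 of the 37 members passed the filter on low counts, and all 11 had values above 0. Among all 11914 genes tested 40.2% did, with a median of −0.11, and members share the library totals and each other's precursors. None of the 11 passed, in a comparison where 0% of genes were called (0 of 11914, against 2.06% with an unadjusted p under 0.05, and 2 genes called by DESeq2). At an unadjusted p under 0.05 with SN higher there were 2 members, mt-Rnr1 and mt-Rnr2, and 0.327% of all genes. With another scaling of the totals in edgeR (RLE in place of TMM) the median of all genes moved from −0.11 to 0.00. On that scaling 10 of the 11 members stayed above 0, and mt-Tp was at −0.0046. Among clones of size 4 to 6 alone, 10 of the 11 members lay above 0, from 0.23 to 1.53. There mt-Tp was at −0.43, and 0 genes were called.

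**Figure D2:**
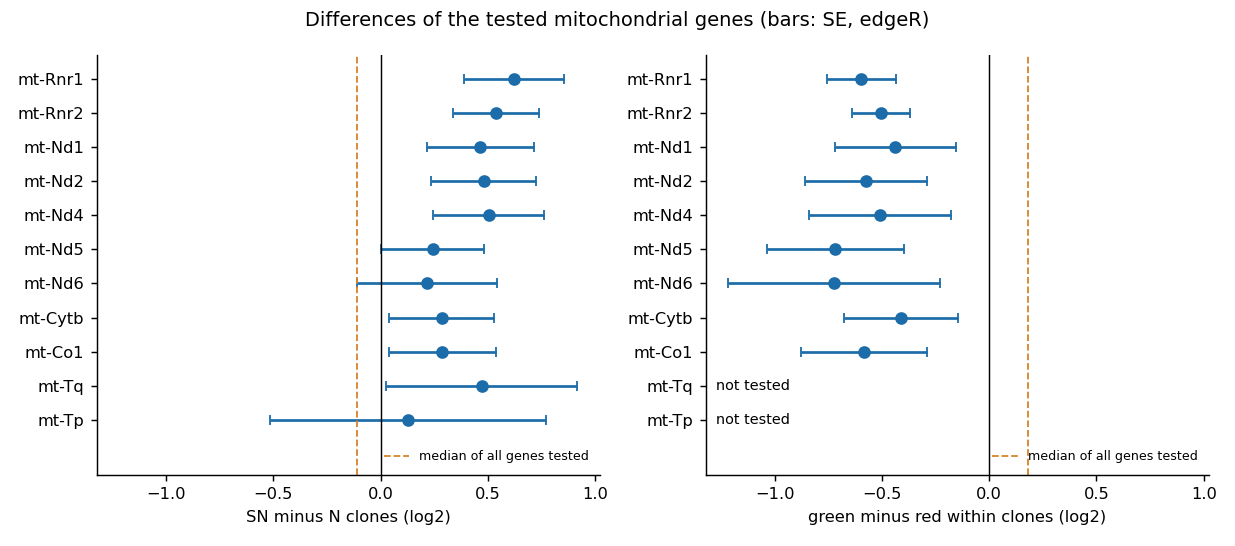
Log2 differences of the tested mitochondrial genes with SE bars, between SN and N clones (left, 42 and 20 clones) and between green and red cells within 45 clones (right), where mt-Tq and mt-Tp were not tested. The 11 values on the left lie above 0 and the 9 on the right below it, none with an adjusted p under 0.05, and dashed lines mark the median of all genes tested.

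Within plates the SN to N difference was uneven. On plate 1, with 15 SN and 5 N clones, mt-Rnr2 was at 1.08 ± 0.26 and mt-Rnr1 at 0.82 ± 0.33. On plate 2 they were at 0.51 ± 0.37 and 0.72 ± 0.44, and on plate 3 at 0.24 ± 0.29 and 0.45 ± 0.34. All 11 members were above 0 on plate 1, 10 on plate 2 and 7 on plate 3, where mt-Nd5, mt-Nd6, mt-Cytb and mt-Tp were below it. The test of the plate dependence itself gave an adjusted p of 1.00 for each member, with 0% of genes called. A difference between plates was thus not shown.

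The summed share was read in each clone. Mitochondrial counts made up 1.70% to 14.9% of exon counts in SN clones (median 6.59%), whereas N clones held 0.499% to 8.86% (median 4.4%). The N clones overlapped the lower part of the SN range, and 36 of 42 SN clones lay above the N median. The difference of the means was 3.65 percentage points (SE 1.03) on plate 1, 1.59 (SE 1.26) on plate 2 and 1.06 (SE 1.14) on plate 3. On plate 1 all 15 SN clones lay above the median of the 5 N clones. On plate 2 only 6 of 14 did, and the N median of 5.82% was above the SN median of 5.65%. The mean difference there leans on clone 25, an N clone of 2 kept cells at 0.499%. Without it that difference was 0.829 (SE 1.07), and mt-Rnr2 went from 0.51 to 0.31 on the log2 scale on that plate. No test is given for this sum over members. N clones had more exon counts per cell (mean 3542232 against 2398850). By plate the means of N and SN clones were 2513369 and 2522610 on plate 1, 5581844 and 2734755 on plate 2, and 2400610 and 1894307 on plate 3. The unnamed ID took 20.6% in N and 19.5% in SN clones; their part in the difference was not tested.

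**Figure D3:**
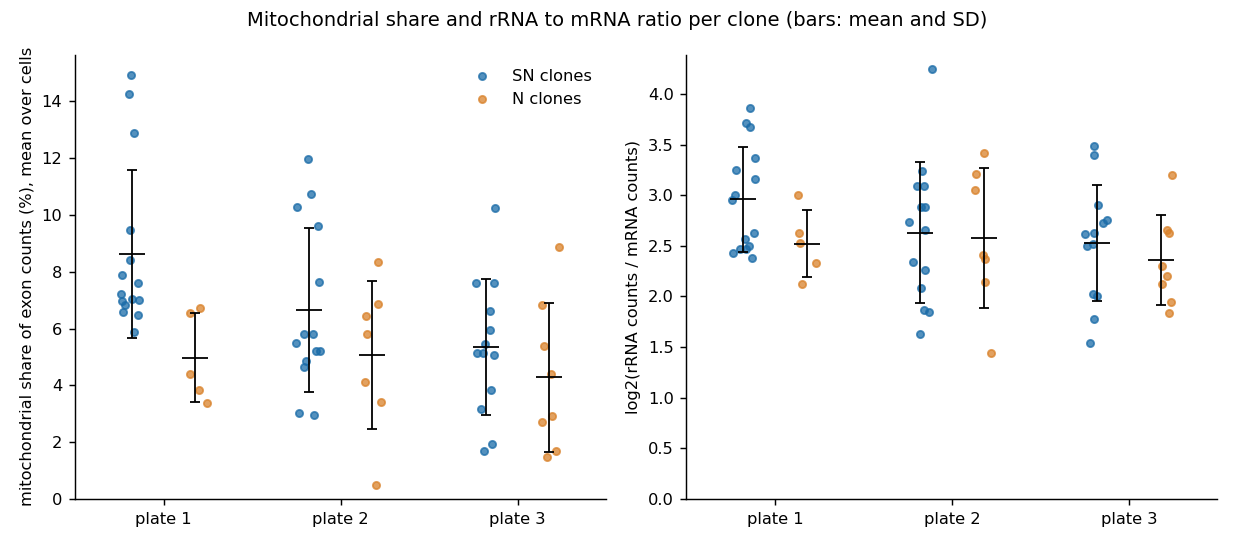
Mitochondrial share of exon counts (left, percent) and log2 ratio of rRNA to mRNA counts (right) for each clone, by plate and clone type, with means and SDs in black. SN means lie above N means on each plate in both panels, by 3.65, 1.59 and 1.06 percentage points on the left.

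The balance among the members was read from ratios, which have no test here. The log2 rRNA to mRNA ratio of a clone averaged 2.72 (SD 0.61) over SN and 2.48 (SD 0.51) over N clones, a difference of 0.24 (SE 0.15), with 0.44 (SE 0.20) on plate 1, 0.05 (SE 0.32) on plate 2 and 0.17 (SE 0.22) on plate 3. The log2 ratio of mt-Rnr1 to mt-Rnr2 averaged −0.08 in SN and −0.21 in N clones, 0.13 apart (SE 0.15). Complex I held 52.8% of mitochondrial mRNA, with SD 7.41, in SN clones, against 49.7%, with SD 5.04, in N clones, 3.13 percentage points apart (SE 1.61). Complex IV held 30.0% and 32.4%, a difference of −2.33 (SE 1.50), and complex III 17.1% and 17.9%. The complex I difference was 8.27 percentage points (SE 3.14) on plate 1, −1.03 (SE 2.01) on plate 2 and 3.69 (SE 2.63) on plate 3, so its sign was not the same on all plates.

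Nuclear genes of the same complexes lay on both sides of 0. Of all 11914 genes tested 40.2% were above 0, with a median of −0.11, and the median of each list below was higher. Of 37 nuclear-encoded complex I genes tested, 19 had values above 0 and 18 below, with a median log2 difference of 0.02. Complex III, IV and V lists had medians of −0.04, 0.07 and 0.01 over 9, 10 and 13 genes, and the 77 mitochondrial ribosomal protein genes tested one of −0.08. None of these passed the test. Of 39 tested genes for mitochondrial RNA synthesis and processing, 17 were above 0 and 22 below, with a median of −0.03 and none past the threshold. The smallest p in that list were those of Ddx28, an RNA helicase of mitochondria (−3.83 ± 0.93, edgeR adjusted p = 0.407), of Pnpt1, a mitochondrial exoribonuclease (1.72 ± 1.03), and of Fastk (0.99 ± 0.66), which acts on mitochondrial RNA; the last pair had an adjusted p of 1.

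Green and red cells of the same clone were compared in 45 clones. In one of them, clone 45, colour and plate cannot be told apart: its 2 red cells and 1 green cell were on plate 2 and its 7 other green cells read were on plate 3, to which the clone was assigned. In green cells mt-Rnr2 ran from 3036 to 67746 CPM (median 20891) and in red cells from 10510 to 132383 CPM (median 27840), and green was lower in 29 clones. mt-Rnr1 ran from 1222 to 83737 CPM in green (median 19604) and from 6706 to 186343 CPM in red cells (median 25291), with green lower in 31 clones. The colours overlapped over most of their range for both genes. The log2 differences, green minus red with the clone as block, were −0.51 ± 0.14 for mt-Rnr2 and −0.60 ± 0.16 for mt-Rnr1. Their unadjusted p of 0.000354 and 0.000452 ranked 1 and 2 among 7437 genes tested, and the adjusted p of both was 1 by edgeR. Without clone 45 the differences were −0.55 ± 0.13 and −0.64 ± 0.16, with edgeR adjusted p of 0.555 and 0.659.

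The fitted differences of the coding genes were below 0 too. mt-Nd6 was at −0.72 ± 0.49, mt-Nd5 at −0.72 ± 0.32, mt-Co1 at −0.58 ± 0.29, mt-Nd2 at −0.57 ± 0.29, mt-Nd4 at −0.51 ± 0.33, mt-Nd1 at −0.44 ± 0.28 and mt-Cytb at −0.41 ± 0.27. Green was lower in 25 to 31 of 45 clones for these genes. Within plate 1, 8 of the 9 members tested were still below 0, from −0.56 to −0.0012, and mt-Co1 was at 0.02, while the share of the coding genes in exon counts was higher in green cells in 11 of 14 clones. On plates 2 and 3 that share was lower in 11 of 15 and in 12 of 16 clones. Of the 9 members tested none was called, where 0% of genes were (0 of 7437, against 1.64% with an unadjusted p under 0.05). All 9 were below 0, as were 38% of all genes, and 4 had an unadjusted p under 0.05 with green lower, against 0.35% of all genes. With RLE scaling in edgeR mt-Rnr2 passed the threshold (log2 −0.61 ± 0.12, edgeR adjusted p = 0.0288) and was the only gene that did.

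The median of all genes has to be read beside these values, since it moved with the plate. It was 0.18 over all 45 clones, 0.71 on plate 1, −0.85 on plate 2 and 0.60 on plate 3. On plate 2 the values of the members ran from −1.33 to −0.42, so they lay on both sides of the median of all genes. On plate 1 mt-Rnr2 was at −0.54 ± 0.19 and on plate 3 at −0.58 ± 0.22, both below the median there. The difference of green from red cells in detected genes, as a mean over clones, was 1416 for plate 1, −1554 for plate 2, 1133 for plate 3; the part of this in the result was not tested. Cell type markers were read by colour too, without a test. The summed level of the 8 radial glia markers was lower in green cells in 33 of 45 clones, with medians over clones of 2235 CPM for green and 3214 CPM for red. That of the 4 cycling markers was lower in green in 27 clones (146.44 against 156.02 CPM), and that of the 7 excitatory neuron markers in 21 (6963 against 7050 CPM). That of the 4 intermediate progenitor markers was lower in green in 22 clones and higher in 20. By plate, cycling markers were lower in green in 9 of 14 and 11 of 15 clones on plates 1 and 2. On plate 3 they were higher in 9 of 16. Excitatory neuron markers were higher in green in 11 of 14 clones on plate 1. They were lower in 8 of 15 on plate 2 and in 10 of 16 on plate 3. Over single cells the medians in green and red were 1983 and 3487 CPM for radial glia and 58.4 and 153.3 CPM for cycling markers. The part of these markers in the colour difference was not tested.

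Per clone the mitochondrial share was lower in green cells in 29 of 45 clones. By plate that was 5 of 14 clones on plate 1, 11 of 15 on plate 2 and 13 of 16 on plate 3. The median difference was −1.40 percentage points over SN clones, where green was lower in 20 of 31, and −1.77 over N clones, where it was lower in 9 of 14. The means were −2.32 (SE 0.73) and −0.32 (SE 1.11), so mean and median order the clone types differently, and the difference between the types was not tested on the share. In clone 45, an N clone, green cells were at 9.97% and red cells at 4.43%, and without it the mean over N clones was −0.77 (SE 1.10). For single genes the interaction of colour and clone type gave adjusted p of 0.999 for all 9 members, with 0% of genes called. The log2 rRNA to mRNA ratio was −0.01 apart (SE 0.14) between the colours, and the complex I share −0.71 percentage points (SE 2.13). By clone type the ratio was −0.14 (SE 0.19) over SN clones, with green lower in 21 of 31, and 0.28 (SE 0.17) over N clones, with green higher in 10 of 14. By plate the complex I share differed by −5.28 percentage points (SE 2.94) on plate 1, 6.09 (SE 3.54) on plate 2 and −3.08 (SE 3.92) on plate 3. The differences between these parts were not tested. In the titles of the libraries red cells carried the lower cell numbers, by 1.49 on average (SE 0.27), and the order of collection was not tested.

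**Figure D4:**
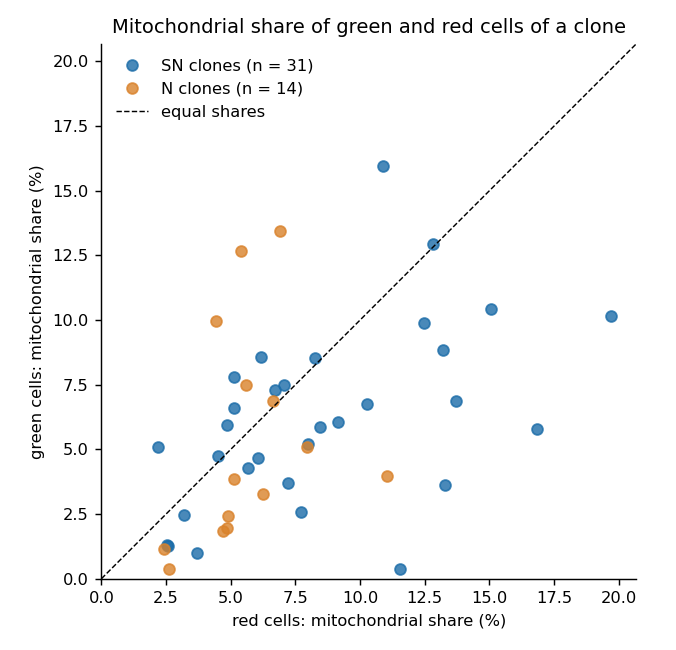
Mitochondrial share of exon counts in green cells against that in red cells of the same clone (percent, mean over cells), for 31 SN and 14 N clones. In 29 of 45 clones the point lies below the dashed line of equal shares.

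Nuclear genes of the lists lay on both sides of 0. The median of green minus red over all 7437 genes tested was 0.18. It was 0.01 for nuclear-encoded complex I, −0.01 for complex IV and 0.02 for complex V, all below that of all genes. For complex III it was 0.19 and for mitochondrial ribosomal proteins 0.35, both above it. Of 15 tested genes of the RNA machinery list, 9 were above 0 and 6 below. Those with the smallest p were Rexo2, an oligoribonuclease (1.52 ± 0.94), Tbrg4 (1.38 ± 1.09) and Fastk (−1.89 ± 1.53), each with an edgeR adjusted p of 1.

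Plate is the technical grouping that the labels give, and here members passed the test, though which ones did depended on how cells were weighted. With counts summed per clone 2 of the 11 members were called, mt-Nd5 (edgeR adjusted p = 0.0132) and mt-Tq (adjusted p = 0.0183), where 5.57% of all genes were called (664 of 11914). mt-Nd5, a complex I subunit, had a median of 524 CPM on plate 1 (range 143.8 to 1108), 529 on plate 2 (range 71.5 to 1182) and 1071 on plate 3 (range 116.4 to 3974). Plates 1 and 2 covered the same range, and plate 3 reached higher. Its log2 difference from plate 1 was 0.02 on plate 2 and 0.95 on plate 3. A sum gives cells with more counts more weight. As means over the cells of a clone, without TMM scaling, the medians were 567, 538 and 733 CPM on plates 1, 2 and 3. With equal weight per cell, on the mean of log2(CPM + 1), mt-Nd5 was 0.74 higher on plate 3 than on plate 1. Its limma adjusted p for plate was 0.534. The highest value, 3974 CPM, was that of clone 66, an N clone. Without that clone the adjusted p of mt-Nd5 was 0.11, so the call rests on it. Without clone 45, whose cells were on plates 2 and 3, 669 genes were called, with adjusted p of 0.0101 for mt-Nd5 and 0.0107 for mt-Tq.

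The share of mt-Nd5 among mitochondrial mRNAs moved with plate too. It averaged 7.24% on plate 1 (SD 2.98, n = 20 clones), 7.13% on plate 2 (SD 2.73, n = 21) and 14.3% on plate 3 (SD 4.62, n = 21). The mean was 14.0% in SN clones and 14.9% in N clones of plate 3, and 7.42% and 6.71% on plate 1. The higher share on plate 3 was thus seen in both clone types. The other coding genes had log2 differences of −0.45 to −0.10 from plate 1 to plate 3, none called.

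mt-Tq had a median of 0.885 CPM on plate 1 (range 0 to 3.14), 2.98 on plate 2 (range 0.823 to 17.5) and 1.51 on plate 3 (range 0 to 4.57). Plate 2 held the highest clones, and the lower part of its range lay within that of plate 1. Its log2 difference from plate 1 was 1.96 on plate 2 and 0.73 on plate 3, and the call held without clone 30, the highest (adjusted p = 0.0465). As means over the cells of a clone its medians were 2.05, 2.07 and 1.40 CPM on plates 1, 2 and 3, so the gap between plates 1 and 2 was not seen on that scale. In the limma fit with equal weight per cell, on the mean of log2(CPM + 1), mt-Tq was still 0.87 higher on plate 2 than on plate 1. Its limma p for plate was 0.0315 unadjusted and 0.219 adjusted. mt-Rnr1 had medians of 30314, 22422 and 14003 CPM on plates 1, 2 and 3, with a log2 difference of −0.88 from plate 1 to plate 3 that did not pass (adjusted p = 0.0655). It passed without clone 66 (edgeR adjusted p = 0.0156) and with equal weight per cell (limma adjusted p = 0.0237). With RLE scaling its edgeR adjusted p was 0.404. The log2 ratio of mt-Rnr1 to mt-Rnr2 averaged 0.23 on plate 1 (SD 0.64), −0.15 on plate 2 (SD 0.41) and −0.43 on plate 3 (SD 0.37). Across cells that ratio ran against the intron share, with a Spearman's rho of −0.31 over all cells read and −0.56 on plate 1, and the part of the intron share in it was not tested.

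**Figure D5:**
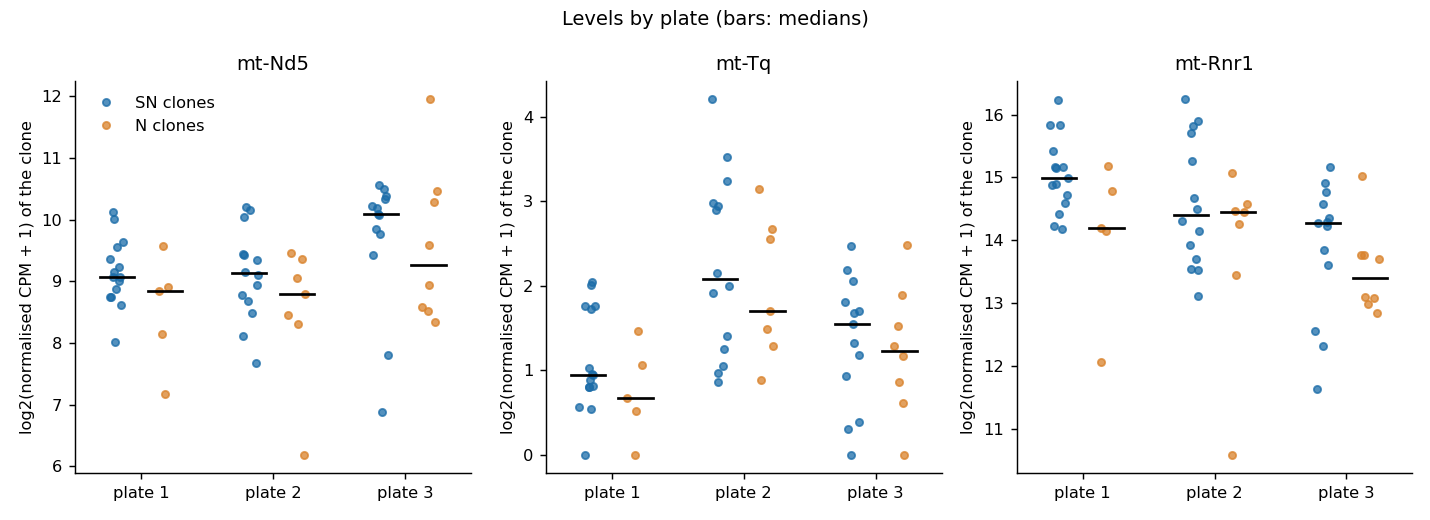
Log2(normalised CPM + 1) of mt-Nd5, mt-Tq and mt-Rnr1 for each clone, by plate and clone type, with medians as black bars. mt-Nd5 is highest on plate 3, with clone 66 at 3974 CPM at the top, mt-Tq is highest on plate 2, and the median of mt-Rnr1 goes from 30314 CPM on plate 1 to 14003 CPM on plate 3.

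Nuclear genes of oxidative phosphorylation also differed by plate. Of the nuclear-encoded lists 13 of 37 complex I genes, 5 of 9 complex III genes, 9 of 10 complex IV genes and 9 of 13 complex V genes were called, against 5.57% of all genes, and each of these called genes was lower on plate 3 than on plate 1. Their medians from plate 1 to plate 3 were −1.10, −1.0, −1.21 and −0.86, against −0.26 for the 11 mitochondrial members and −0.05 for all genes tested. Of 39 RNA machinery genes 1 was called, Ddx28 (adjusted p = 0.0148), and Mrm1 (0.169) and Ssbp1 (0.204) followed. The unnamed ID took its largest share on plate 3, and its part in these differences was not tested.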

How the data were processed

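Raw exon and intron counts per gene ID and cell were used as deposited, one column per library; per the submitters' processing notes STAR 2.7.9a, R 4.4.0 and the GRCm39 build were used. The counting tool, annotation, strand use, handling of reads with several matches and use of molecular identifiers are not given in the sources used here. Cells with a count in at least 1000 genes were kept (247 of 284 labelled: 131 SN and 116 N, 153 green and 94 red), and 3 unlabelled cells entered no comparison. No doublets were called, since each library is 1 pipetted cell.

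Counts were summed per clone (at least 2 kept cells) or per clone and colour and tested over all genes by edgeR 4.0.16 (quasi-likelihood F statistic, R 4.3.3, TMM scaling, filterByExpr, Benjamini-Hochberg, threshold 0.05). The fit of SN and N clones had plate as a term, that of colours the clone as block, with p-values for interactions and for plate. Green and red values of a clone are thus paired by the clone that the labels give. SEs were taken from the log2 difference and its F. CPM are counts per 1000000 exon counts, in clone comparisons with TMM-scaled totals. Alternatives used limma 3.58.1, DESeq2 1.42.0, RLE in place of TMM scaling in edgeR, and other filters and clones. The edgeR steps were tested on simulated data.

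The files use GRCm39 and the annotation at hand GRCm38 (GENCODE M21), so it gave names, gene order and transcript sequences only, and no coordinates are printed. Shared runs were found by exact matching, alignments with BLAST 2.17.0.

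All rRNA and coding members, the tRNA genes with the 3 largest and the smallest counts, and the 3 machinery genes of smallest p per comparison are named. Clone 45, with cells on 2 plates, was assigned to plate 3, which holds more of them. Clones 25, 45, 66 and 30 and the nuclear copies were singled out after their values were seen. Members and lists were chosen with earlier results of these data known.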

Additional observations from a re-analysis of the deposited data

Results flagged for a closer look

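In 18 groups of clones the highest and the lowest clone were compared with the rest by their gap over the range, and chance picks about 1 group in 20. Clone 25, an N clone of plate 2, had 15.1% of its mitochondrial mRNA counts in mt-Nd5, while the other N clones of that plate (7 in all) lay between 4.75% and 7.31%. Clone 57, an N clone of plate 3, had a log2 ratio of mt-Rnr1 to mt-Rnr2 of −0.029, while the others of its group (8 in all) lay between −0.75 and −0.42.

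Cells outside the comparisons also held mitochondrial counts. The 3 unlabelled cells had 470396, at shares of 0.177%, 10.7% and 4.85% of their exon counts. The 37 labelled cells with a count in fewer than 1000 genes had 38503, at a median share of 2.82% (range 0% to 14.5%), and 28 of them held more than 3.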

How the results depend on the processing

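For clone type, 0 genes were called with edgeR, against 2 with DESeq2 and 2 among cells with at least 2000 detected genes. With no filter on low counts 6861 of 39336 were called. Among them mt-Co2 was the only member, and its 9 counts in 3 cells are too few to read a difference from. For colour, 0 genes were called, against 1 with RLE scaling in edgeR (mt-Rnr2, log2 −0.61), 1 with no filter and 1 within plate 3. Without the replicate block, green and red cells unpaired, 0 were called. Complex IV went from 30.8% to 24.2% of mitochondrial mRNA when genes were divided by length, and to 50.9% when divided by their unshared bases (genes with at least 100), with complex I at 39.3%. For mt-Tp the SN to N log2 difference turned below 0 with RLE scaling (−0.0046) and with no plate term (−0.22). It also did so in clones of size 4 to 6 (−0.43) and within plate 3 (−0.82). For mt-Nd6 it did so within plates 2 (−0.0097, and −0.22 without clone 25) and 3 (−0.030). Within plate 3 it also did so for mt-Cytb (−0.016) and mt-Nd5 (−0.19). The green to red difference of mt-Co1 was 0.024 within plate 1. The cause was not tested. For the plate comparison, leaving out the clones highest in mt-Nd5 or mt-Tq was chosen after seeing the data, as were the division by unshared bases and, for clone type and colour, leaving out clone 45 (0 genes called in both), leaving out clone 25 for clone type, and equal weight per cell for plate. In the other alternatives run, the members' values kept direction and side of the threshold, except mt-Rnr1 and mt-Nd5 in the plate comparison without clone 66 (adjusted p of 0.0156 and 0.11 by edgeR) and with equal weight per cell (0.0237 and 0.534 by limma), where mt-Tq was not called either (0.219) and 586 genes were, against 664. DESeq2 was not run for colour. Depth limits the 3 coding genes with 9 to 35 counts, the tRNAs and complex V.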
